A study of Mus musculus with 8 samples.

Results

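The genes described here are Myc, Mycn, Mycl, Max, Lin28a and Lin28b, and the data are their contacts between regions that carry H3K27ac, the acetylation of histone H3 found at active promoters and enhancers. A contact belongs to a gene when 1 end of it, called an anchor, lies within 5 kb of an annotated transcription start of that gene on GRCm38. Of 415681 loops in the deposited table, 267 met this rule, and they held 5614 of 8449329 counts. Each count is a read pair joining the ends of a loop. Myc had 23 loops, Mycn 19, Mycl 41, Max 43, Lin28a 141 and Lin28b 0. A loop was tested when 2 or more libraries held 5 or more counts each, which left 36 of these loops and 44706 in all. The other loops of these genes were too sparse for a test, and 40 of the 141 Lin28a loops held a single count over all libraries.

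MYC, MYCN and MYCL are related transcription factors that bind DNA as partners of MAX, at a short palindrome called the E-box, and raise transcription of genes for growth, ribosome assembly and metabolism. LIN28A and LIN28B are RNA-binding proteins that block the maturation of let-7, a microRNA family whose targets include Myc, Mycn and Lin28 messages themselves. Mouse embryonic stem cells (ES cells) use MYC and MYCN for self-renewal, and LIN28A is a marker of the pluripotent state.

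The study crossed the genetic background of ES cells with the allele of an interval on chromosome 13, and mapped contacts by H3K27ac HiChIP, in which crosslinked chromatin is cut with MNase, ligated and immunoprecipitated. B6 was the line B6 5-1 of strain C57BL/6J and D2 the line D2 5-5 of strain DBA/2J. B6-13D2 was the line QJ 6-1 of the congenic strain B6.D2-(rs30079041-rs51756099)/Bakr, a B6 genome with the D2 interval. D2-13B6 was the line XE 2-4 of the reciprocal strain, named D2.B6-(rs29224292-rs13469455)/Bakr in the sample labels and with rs51756099 as its last marker in the series text. All 4 lines were grown in 15% serum with LIF, 1 μM PD0325901 (a MEK inhibitor) and 3 μM CHIR99021 (a GSK3 inhibitor). Each genotype was represented by 1 cell line and 2 technical replicates. A p-value therefore measures a difference between these lines against the spread between libraries of a line, not between independently derived lines.

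Library totals ran from 737955 to 1425304 counts, and the congenic lines were deeper than the parental lines. In both libraries of D2-13B6, chromosome 11 took a raised share of counts (13.9% and 14.0%), where the remaining 6 had 10.0% to 10.6%. None of the 6 genes lies on chromosome 11 or 13. The 10 ES cell marker genes were all tested, with summed contacts of 4905 to 6530 CPM (counts scaled to library size) per library. D2-13B6 stood highest, with a mean of 6338 CPM, against 5117 in B6, 5229 in D2 and 5311 in B6-13D2. Of 8 fibroblast markers, Thy1, Twist1 and Twist2 were at 0 in all libraries. The others held 365 (Col1a1), 182 (Col1a2), 54 (Prrx1), 24 (Col3a1) and 21 (Postn) counts over all libraries, and the sum over the 8 was 55.7 to 92.6 CPM. The neural (Pax6, Sox1, Neurod1) and mesoderm (T, Mixl1, Eomes) markers were at 0, as were 5 of 6 primitive endoderm markers, while Pdgfra held 71 counts. Of the 4 primed epiblast markers, Fgf5 and Pou3f1 were at 0, while Otx2 held 332 counts and Dnmt3b 512, and the list summed to 82.9 to 128.0 CPM per library.

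Of the 6 genes, 5 matched a promoter entry, all but Myc. Sequences are shown for Mycn, which had the most called loops, for Max, the shared partner, and for the Lin28 genes, of which Lin28a had contacts and Lin28b none. They run from 250 bases before the RefSeq start to 10 bases after it, on the strand of the gene (RefSeq, GRCm38.p6). Capitals mark matches, on either strand, to 5 motifs: the E-box CACGTG, the GC box GGGCGG, the TATA box TATAAA, the E2F-type motif TTTGGCGC and the TCF/LEF core CTTTGA. Some matches therefore appear as the reverse complement.
Mycn: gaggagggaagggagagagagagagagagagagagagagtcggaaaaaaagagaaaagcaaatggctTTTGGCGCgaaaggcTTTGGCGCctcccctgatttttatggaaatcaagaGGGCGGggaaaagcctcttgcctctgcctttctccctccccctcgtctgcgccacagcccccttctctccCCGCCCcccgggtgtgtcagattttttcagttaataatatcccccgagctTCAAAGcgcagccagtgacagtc
Max: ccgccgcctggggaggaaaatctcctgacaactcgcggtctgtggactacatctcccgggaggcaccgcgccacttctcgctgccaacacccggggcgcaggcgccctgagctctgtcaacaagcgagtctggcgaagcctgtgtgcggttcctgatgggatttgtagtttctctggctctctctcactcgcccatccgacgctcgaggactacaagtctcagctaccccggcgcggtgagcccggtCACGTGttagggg
Lin28a: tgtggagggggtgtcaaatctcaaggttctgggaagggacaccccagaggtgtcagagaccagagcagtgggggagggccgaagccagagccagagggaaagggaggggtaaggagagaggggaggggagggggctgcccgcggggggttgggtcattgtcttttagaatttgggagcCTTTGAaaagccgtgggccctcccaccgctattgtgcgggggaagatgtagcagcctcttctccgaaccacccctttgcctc
Lin28b: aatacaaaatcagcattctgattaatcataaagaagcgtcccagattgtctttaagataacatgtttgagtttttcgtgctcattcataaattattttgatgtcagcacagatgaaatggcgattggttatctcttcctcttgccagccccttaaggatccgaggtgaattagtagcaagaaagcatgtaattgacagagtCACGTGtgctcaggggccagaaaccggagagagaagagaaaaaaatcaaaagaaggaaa
These windows lie at chr12:12941827-12942086 for Mycn, chr12:76962239-76962498 for Max, chr4:134018807-134019066 for Lin28a and chr10:45470192-45470451 for Lin28b, all on the minus strand. The Max and Lin28b promoters each held 1 E-box, the first starting 3 bases before the start and the second 49 bases before it. An E-box was present in 6.34% of the 32851 promoter windows of this length. The Mycn promoter held 2 copies of TTTGGCGC, which 0.432% of windows contain at least once, and 2 GC boxes, which 33.4% contain. Lin28a and Mycn each held 1 TCF/LEF core, present in 14.3% of windows. The Mycl promoter, not printed, held 1 GC box and 1 TATA box (12.7% of windows). GC content was 38.8% in the Lin28b window, 61.2% in Lin28a, 54.6% in Mycn, 63.5% in Max and 63.1% in Mycl, against a median of 52.3% over all windows. A match describes the letters only, and binding was not measured.

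The genes differed in how their contacts were laid out. The Myc promoter anchor (chr15:61975001-62000000, 25 kb) covered the whole gene, and 92.6% of the counts that left it stayed within 200 kb, against 73.8% over all loops. All 5 tested partners within that distance lay on the downstream side, towards and within Pvt1, a long non-coding RNA gene. The Mycn anchor (chr12:12935001-12945000) was likewise local, with 91.1% of counts within 200 kb, and its 5 tested partners also lay downstream. None of the tested partners of Myc or Mycn was an anchor with a protein-coding start within 5 kb. The tested partners of Mycl, Max and Lin28a did include such promoters, among them Cap1, Ppie and Macf1 for Mycl, Fntb and Zbtb1 for Max, and Arid1a, Hmgn2 and Rps6ka1 for Lin28a.

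Mycl shared its anchor (chr4:122995001-123020000) with Trit1, a tRNA-modifying enzyme gene, so the contacts of both cannot be separated. Of the Mycl counts, 68.5% lay inside this anchor. Max had an anchor at chr12:76960001-76970000. Its loop to the 75-kb anchor at Fntb (76850001 to 76925000), which encodes a protein farnesyltransferase subunit, held 661 of 999 counts. Lin28a had an anchor at its starts (chr4:134010001-134020000) and a second at chr4:134000001-134005000, within 5 kb of a start and also of Dhdds. Its contacts were the most dispersed, with 26.9% of counts in the top 3 loops, against 63.9% to 81.0% for the other genes with loops.

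Lin28b had no anchor within 5 kb of any of its 3 annotated starts. The nearest anchor (chr10:45445001-45450000) lay 20.2 kb away and carried 18 counts in 12 loops over all 8 libraries. The 2 Lin28 genes thus differed in this assay, with 1141 counts at Lin28a and none listed at Lin28b. This is a description of which contacts the deposited files list.

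**Figure D1:**
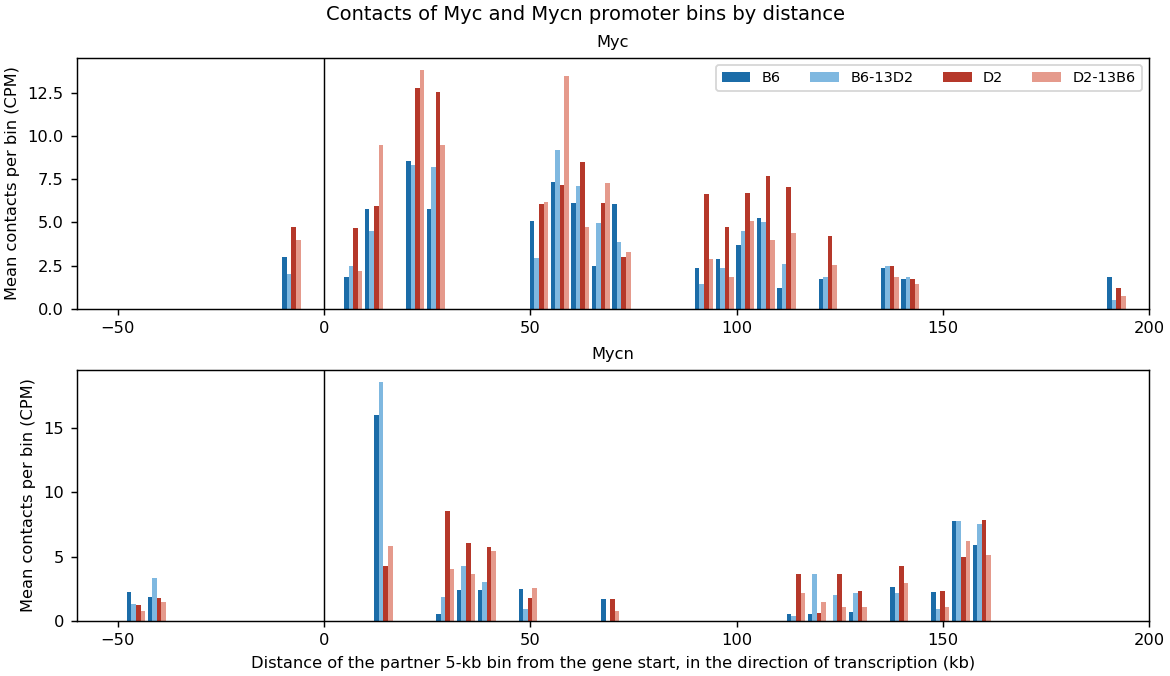
Mean contacts in CPM (vertical axis) of 5-kb bins with the start of Myc (upper panel) or Mycn (lower panel), by distance of the partner bin in the direction of transcription (horizontal axis, kb); each bar is the mean of the 2 libraries of a line. The fullest Myc bin lies at 22.1 kb with 91 counts over all libraries, and the fullest Mycn bin, at 14.4 kb with 91 counts, is taller in both lines of B6 background.

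The contacts of each gene were next summed over its loops and scaled to CPM, and 19524 genes were tested together. Sums are not compared between genes, because anchors differ in width and some are shared. Myc had the clearest difference, with higher sums in both lines of D2 background. Myc stood at 110.6 and 133.1 CPM in B6, 135.7 and 112.9 in B6-13D2, 180.6 and 168.2 in D2, and 167.7 and 146.1 in D2-13B6. Every D2-background library lay above every B6-background library. The background effect averaged over both interval alleles was a log2 fold change of 0.44 (D2 minus B6, SE 0.10, adjusted p = 0.000399, edgeR quasi-likelihood test). This difference passed the threshold of 0.05 under each of the 20 alternative settings and left-out libraries. Across all genes, 26.5% were called in this comparison, 13.8% higher and 12.8% lower in D2 background. Non-overlapping libraries with D2 background higher were seen in 7.95% of genes.

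Between the parental lines, Myc rose by 0.53 on the log2 scale in D2 against B6 (SE 0.15, adjusted p = 0.0104, edgeR). In this comparison 12.4% of genes were called. The call rested on single libraries. Without B6 replicate 1 the log2 fold change was 0.37 (adjusted p = 0.25), and without D2 replicate 1 it was 0.47 (adjusted p = 0.132), with the remaining library assumed to vary like those of the other lines. With DESeq2 the adjusted p was 0.103. Both comparisons use the B6 and D2 libraries and are not independent of each other.

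Lin28a changed in the opposite direction. Its sums were 181.6 and 156.9 CPM in B6, 127.2 and 143.7 in B6-13D2, 125.7 and 116.3 in D2, and 125.4 and 118.5 in D2-13B6. The B6 libraries were the highest, and the B6-background libraries did not overlap those of D2 background, although 127.2 and 125.7 lay close together. Non-overlap with B6 background higher was seen in 9.2% of all genes. The averaged background effect was -0.33 (SE 0.10, adjusted p = 0.0109, edgeR), and D2 against B6 gave -0.49 (SE 0.15, adjusted p = 0.0189). The averaged call was lost with DESeq2 (adjusted p = 0.103), and without B6 replicate 1 (0.05), B6-13D2 replicate 2 (0.0677) or D2-13B6 replicate 2 (0.0587). The parental call was lost without B6 replicate 1 (0.237), D2 replicate 1 (0.0647) or D2 replicate 2 (0.161), with DESeq2 (0.149), and with a scaling factor per chromosome (0.0506).

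Mycl was also lower in D2 background on average. It stood at 235.9 and 207.0 CPM in B6, 211.0 and 248.3 in B6-13D2, 163.4 and 182.1 in D2, and 209.3 and 215.2 in D2-13B6. The low values were those of D2, while the D2-13B6 libraries lay within the range of B6 background. The averaged background effect of -0.25 (SE 0.09, adjusted p = 0.0338, edgeR) was lost under 11 of 20 alternatives, among them the 5 left-out libraries B6 replicate 1 (0.103), D2 replicate 1 (0.128), B6-13D2 replicate 2 (0.199), D2-13B6 replicate 1 (0.0873) and D2-13B6 replicate 2 (0.0797). Without the loop inside the anchor shared with Trit1 it was -0.15 (adjusted p = 0.488, edgeR). With a scaling factor per chromosome it was -0.18 (adjusted p = 0.135, edgeR), and with DESeq2 -0.25 (adjusted p = 0.17). Mycl and Lin28a both lie on chromosome 4. In D2 against B6, Mycl gave -0.37 (SE 0.14, adjusted p = 0.064).

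Max, the shared partner of the MYC proteins, did not pass the test in any of the 6 contrasts. It stood at 107.5 and 141.1 CPM in B6, 112.4 and 115.1 in B6-13D2, 120.0 and 127.7 in D2, and 115.9 and 119.9 in D2-13B6. The B6 pair held both the lowest and the highest value. The averaged background effect was 0.03 (SE 0.11).

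Mycn sums followed neither background nor allele beyond the spread. They were 51.1 and 55.4 CPM in B6, 73.2 and 54.2 in B6-13D2, 69.7 and 69.6 in D2, and 51.8 and 48.0 in D2-13B6. The D2-allele libraries were the higher ones except for B6-13D2 replicate 2, which fell within the range of the B6 allele. The averaged interval effect (D2 allele minus B6 allele) was 0.36 (SE 0.15, adjusted p = 0.109, edgeR), and without B6-13D2 replicate 2 it was 0.47 (adjusted p = 0.0333).

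**Figure D2:**
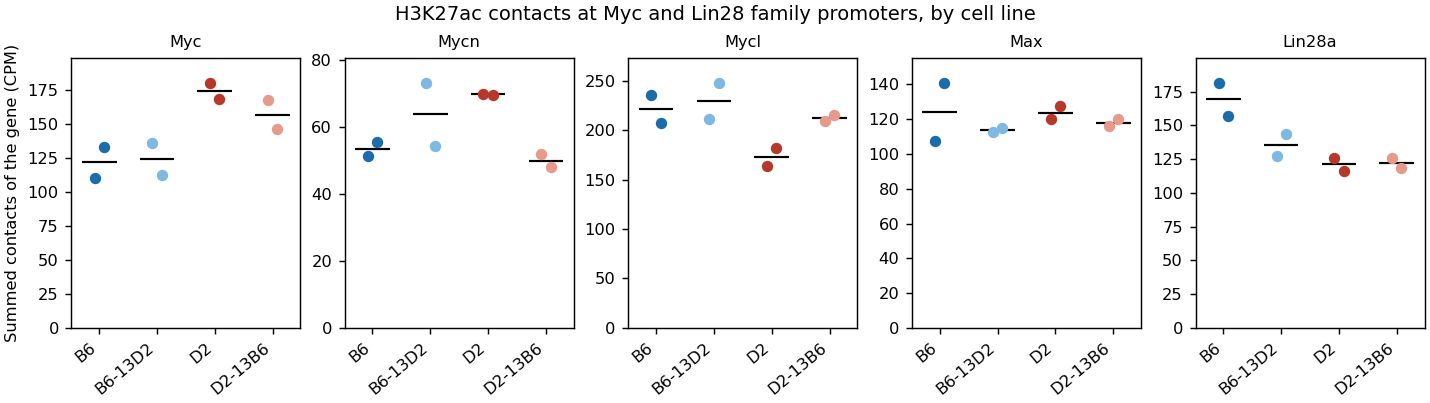
Summed contacts in CPM (vertical axis, from 0) of the 5 genes with loops, by cell line (horizontal axis); points are the 2 libraries of a line and the bar their mean. The 4 D2-background libraries of Myc, 146.1 to 180.6 CPM, sit above the 4 of B6 background, 110.6 to 135.7.

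No gene sum of these 5 was called in a contrast of the chromosome 13 interval. The share of all genes called was 6.67% for B6-13D2 compared with B6, 9.5% for D2 compared with D2-13B6, 9.69% for the averaged interval effect and 8.09% for the interaction of interval and background. For Myc the interval effect was 0.02 (SE 0.15) in B6 background and 0.15 (SE 0.14) in D2 background. For Lin28a these values were -0.32 (SE 0.14, adjusted p = 0.174, edgeR) and -0.01 (SE 0.15), and the interaction was 0.31 (SE 0.21, adjusted p = 0.415). For Mycl they were 0.06 (SE 0.13) and -0.30 (SE 0.13), with an interaction of -0.36 (SE 0.18, adjusted p = 0.247).

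**Figure D3:**
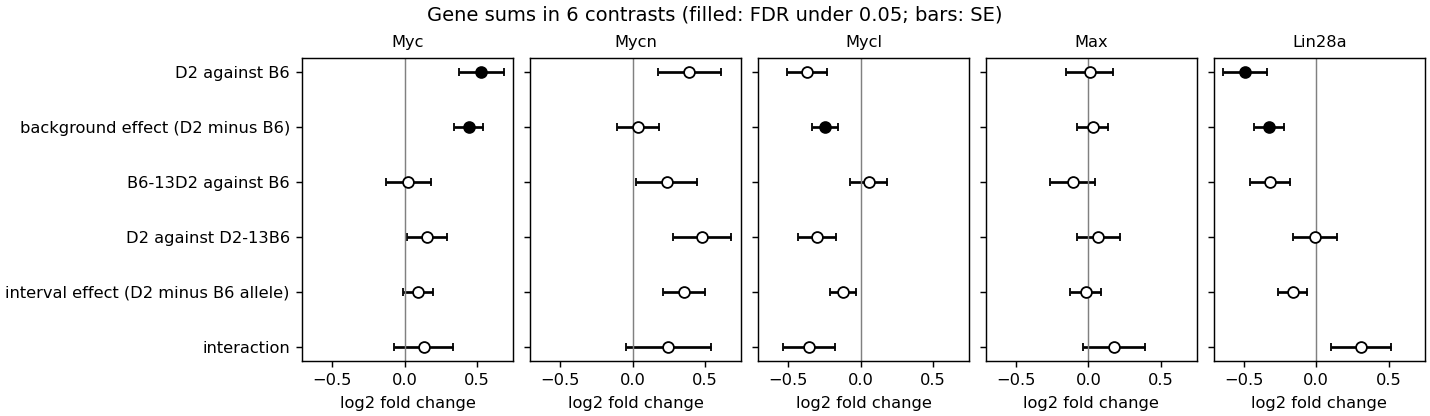
Log2 fold changes (horizontal axis) of the summed contacts of 5 genes in 6 contrasts (rows); points are edgeR estimates, bars 1 SE, and filled points have an adjusted p under 0.05. Filled points occur for Myc, Mycl and Lin28a, and only in the D2 against B6 and background rows.

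Single loops were tested next. Of the 36 tested loops, 4 were called in D2 against B6, 1 of Myc and 3 of Mycn, where 2.65% of all tested loops were called. For the averaged background effect 3 were called, 1 of Myc and 2 of Mycn, with 8.85% called overall. The remaining 4 contrasts gave 0 calls at these genes by edgeR, with 3 loops at an unadjusted p under 0.05 for the interval in B6 background, 2 for the interval in D2 background, 4 for its averaged effect and 2 for the interaction. DESeq2 called none there either, but it left 42470 of the 44706 loops without an adjusted p (41604 for the averaged interval effect), so its count says little. Overall calls there were 0.879%, 0.91%, 0.989% and 0.602%. Libraries of the 2 backgrounds did not overlap in 9 of the 36 loops, against 10.8% of all tested loops. Among the 9 were a loop upstream of Max and Lin28a loops to Gpatch3, Arid1a and Rps6ka1. These would not have passed the count filter on the background where they are low. Their separation is partly set by that filter, so the 9 are not read as an excess. Libraries of the 2 alleles overlapped in each of the 36, against 3.71% that did not overlap among all loops.

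The loops of the Mycn promoter changed in opposite directions between backgrounds. A 5-kb anchor 14.4 kb downstream of its start (chr12:12925001-12930000), in which no gene is annotated, was contacted more in B6 background. That loop had 18 and 10 counts in B6, 23 and 17 in B6-13D2, 3 and 4 in D2, and 9 and 7 in D2-13B6, which scaled to 12.6 to 23.7 CPM in B6 background and 3.54 to 6.57 in D2 background. The backgrounds did not overlap. The averaged background effect was -1.72 (SE 0.34, adjusted p = 3.15e-05, edgeR), and it was called under each of 19 alternatives, including DESeq2. D2 against B6 gave -1.88 (SE 0.55, adjusted p = 0.031).

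The next anchor, 34.4 kb downstream (chr12:12900001-12915000), was contacted more in D2 background. It overlaps exons of the non-coding genes 4930519A11Rik and Gm40271 and the pseudogene Rpl36-ps3. The counts were 5 and 4 in B6, 10 and 10 in B6-13D2, 18 and 16 in D2, and 18 and 18 in D2-13B6. In CPM, B6 background held 5.15 to 10.3 and D2 background 13.0 to 21.2, without overlap. The averaged background effect was 1.29 (SE 0.32, adjusted p = 0.00175, edgeR), lost under DESeq2 (0.0981), and D2 against B6 gave 1.99 (SE 0.49, adjusted p = 0.00492).

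Another anchor, 121.9 kb downstream (chr12:12810001-12830000) and without an annotated gene, had 2 and 1 counts in B6, 9 and 9 in B6-13D2, 9 and 8 in D2, and 11 and 5 in D2-13B6. The B6 libraries were the lowest, at 2.06 and 1.33 CPM, followed by D2-13B6 replicate 2 at 3.60, and the other 5 lay between 6.65 and 10.6. The fitted change in D2 against B6 was 2.52 (SE 0.75, adjusted p = 0.0354, edgeR), and the ratio of count rates, 17 against 3 counts, was 6.05 with an exact 95% interval of 1.75 to 32.2 for counting error alone. The averaged background effect was 1.05 (adjusted p = 0.16). The averaged interval effect was 1.46 (adjusted p = 0.0996), with B6-13D2 against B6 at 2.08 (adjusted p = 0.229).

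The most distant of the main Mycn partners did not pass a test. The anchor at Platr19, a non-coding gene 154.4 kb downstream (chr12:12780001-12795000), had 9 and 17 counts in B6, 20 and 15 in B6-13D2, 11 and 14 in D2, and 17 and 17 in D2-13B6. Its averaged background effect was -0.13 (adjusted p = 0.854, edgeR), and its libraries overlapped between backgrounds, at 9.27 to 22.6 CPM against 12.2 to 18.3.

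Shares of the Mycn counts, which do not depend on how libraries are scaled, were compared next. The anchor at 14.4 kb took 29.3% of Mycn counts in B6 background (exact 95% interval 23.5% to 35.6%, 68 of 232 counts) and 9.09% in D2 background (5.85% to 13.3%, 23 of 253). The anchor at 34.4 kb took 12.5% (8.53% to 17.5%) and 27.7% (22.2% to 33.6%). Per library, the first share was 23.6% to 36.7% against 4.92% to 12.7%, and the second 9.52% to 14.5% against 25.4% to 29.5%. Between the congenic lines the intervals at 34.4 kb overlapped, at 8.88% to 21.1% in B6-13D2 and 19.1% to 34.5% in D2-13B6. The anchor at 121.9 kb took 9.05% in B6 background (5.69% to 13.5%) and 13.0% in D2 background (9.15% to 17.8%), which also overlap. Intervals cover the counting error of pooled libraries only, not the spread between libraries, and read pairs carried no molecular identifiers.

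The anchor at 14.4 kb also had fewer contacts with regions other than Mycn in D2 background. Its 13 other loops summed to 28.8 and 35.9 CPM in B6, 22.7 and 24.4 in B6-13D2, 15.3 and 10.4 in D2, and 12.4 and 15.8 in D2-13B6, again without overlap. The 20 other loops of the anchor at 34.4 kb overlapped between backgrounds, at 54.5 to 78.3 CPM against 52.5 to 90.0. Whether reads of D2 genomes were mapped to a genome of their own strain is not given in the sources used here, and the part of strain variants under the 14.4-kb anchor in its lower counts was not tested.

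**Figure D4:**
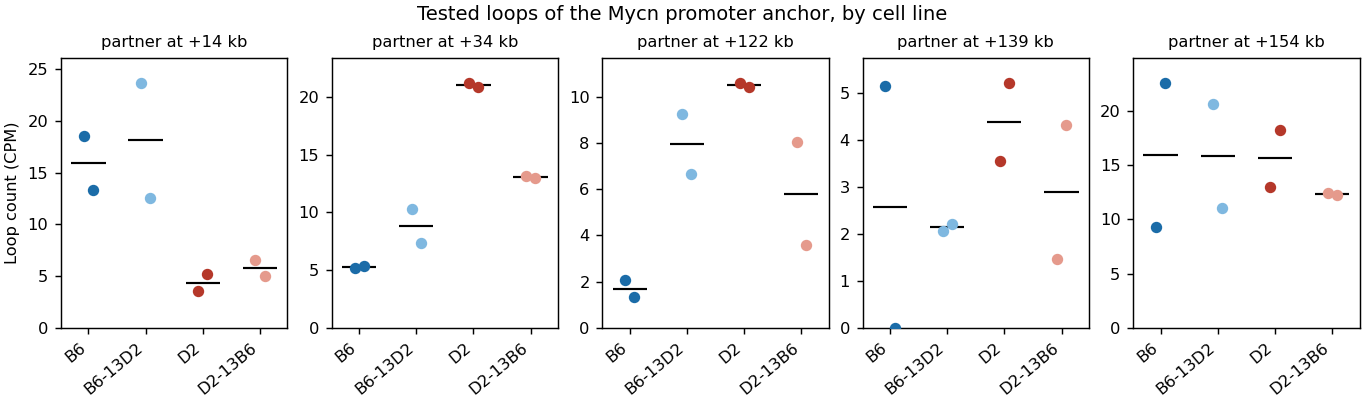
Counts in CPM (vertical axes, each from 0) of the 5 tested loops of the Mycn promoter anchor, by cell line (horizontal axis), in order of the distance of the partner downstream of the start; points are the 2 libraries of a line and bars their mean. The loop at 14 kb is higher in both lines of B6 background and the loop at 34 kb in both of D2 background, while the loop at 154 kb overlaps.

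At Myc, 1 downstream loop was called. The loop to an anchor 102.1 kb downstream (chr15:62075001-62100000), over exons of Pvt1 and of the small RNA gene Gm27782, had 14 and 18 counts in B6, 20 and 32 in B6-13D2, 39 and 28 in D2, and 39 and 35 in D2-13B6. This gave 14.4 to 23.9 CPM in B6 background and 25.2 to 46.0 in D2 background. The D2 libraries were the highest. The change was 1.15 in D2 against B6 (SE 0.32, adjusted p = 0.0177, edgeR) and 0.71 for the averaged background effect (SE 0.21, adjusted p = 0.0154).

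The nearer loops of Myc were higher in D2 background without passing the test. The loop to an intergenic anchor 24.6 kb downstream (chr15:62005001-62015000) held 32 and 27 counts in B6, 38 and 48 in B6-13D2, 39 and 43 in D2, and 73 and 55 in D2-13B6. Scaled, these were 32.9 to 39.1 CPM in B6 background and 39.6 to 56.1 in D2 background, with an averaged effect of 0.45 (adjusted p = 0.0922, edgeR). The loop to the Pvt1 anchor at 62.1 kb (chr15:62035001-62060000) held 30.9 to 38.5 CPM in B6 background and 43.0 to 48.4 in D2 background, with an averaged effect of 0.42 (adjusted p = 0.133). Neither loop overlapped between backgrounds.

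Contacts inside the Myc anchor had 9 and 11 counts in B6, 11 and 10 in B6-13D2, 17 and 10 in D2, and 27 and 21 in D2-13B6 (averaged effect 0.73, adjusted p = 0.0988, edgeR). The loop to the intron of Pvt1 at 139.6 kb (chr15:62120001-62130000) went from 3.69 to 9.27 CPM in B6 background and 3.60 to 6.57 in D2 background, with an averaged effect of -0.16 (adjusted p = 0.895, edgeR). As a share of the Myc counts, the loop at 102.1 kb took 17.3% in B6 background (exact 95% interval 14.06% to 20.99%) and 19.5% in D2 background (16.7% to 22.6%). These intervals overlap, unlike those of the Mycn loops at 14.4 and 34.4 kb. By line, D2 had the highest share at 23.0%, B6-13D2 had 18.7%, D2-13B6 had 17.2% and B6 had 15.5%. Per library the share was 13.2% to 21.3% in B6 background and 17.0% to 24.7% in D2 background.

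**Figure D5:**
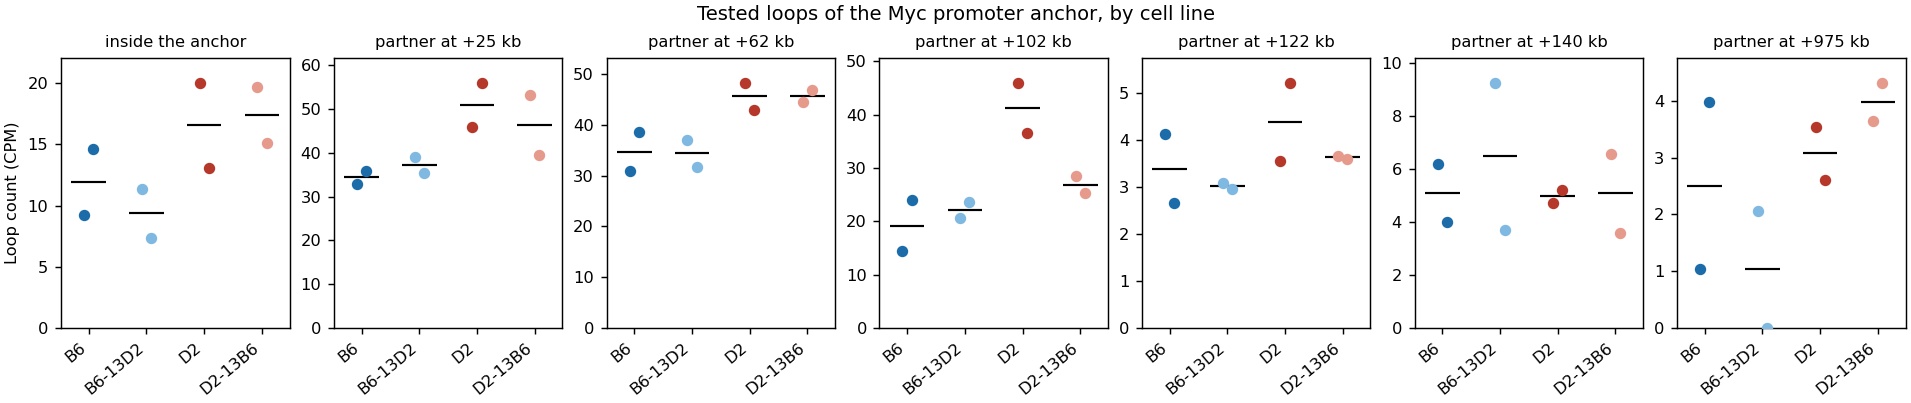
Counts in CPM (vertical axes, each from 0) of the 7 tested loops of the Myc promoter anchor, by cell line (horizontal axis), in order of partner distance; points are the 2 libraries of a line and bars their mean. The loops at 25, 62 and 102 kb are higher in every D2-background library, and the loop at 102 kb is highest in D2.

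The 4 loop calls of D2 against B6 depended on single libraries. Without B6 replicate 1 there were 0, without D2 replicate 1 there was 1, and without D2 replicate 2 there were 2. The fit without a filter on low counts gave 0, where 476 of all 415681 loops were called, against 1183 of 44706 in the main fit. DESeq2 also gave 0, where it called 338 over all loops. It returned no adjusted p for 30336 of the 44706 loops, the Mycn loop at 121.9 kb among them. In the averaged background effect, the Myc loop at 102.1 kb was lost without B6 replicate 1 (adjusted p = 0.213), D2 replicate 1 (0.119), B6-13D2 replicate 1 (0.0532) or D2-13B6 replicate 1 (0.0688), and with DESeq2 (0.233).

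The 6 tested loops of Mycl, 6 of Max and 12 of Lin28a gave 0 calls in any of the 6 contrasts by edgeR. Contacts inside the Mycl and Trit1 anchor were 164 and 134 CPM in B6, 141 and 179 in B6-13D2, 123 and 121 in D2, and 136 and 141 in D2-13B6 (averaged background effect -0.26, adjusted p = 0.134, edgeR). Its loop to Macf1, which encodes a cytoskeletal linker protein, lay 646.8 kb downstream and held 10.6 to 17.5 CPM in B6 background and 14.2 to 18.2 in D2 background. The loop to Cap1, a regulator of actin turnover, lay 113.2 kb upstream and held 9.30 to 15.4 against 9.44 to 13.7 CPM. The loop to Ppie, a peptidyl-prolyl isomerase gene, held 2.22 to 6.18 against 2.19 to 8.64 CPM. An anchor 98.2 kb upstream, with no annotated gene, held 4.12 to 7.38 against 1.18 to 7.30 CPM. Backgrounds overlapped in each of these loops.

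The Max loop to Fntb stood at 77.2 and 93.0 CPM in B6, 78.3 and 80.5 in B6-13D2, 82.6 and 87.4 in D2, and 65.7 and 74.9 in D2-13B6. Its averaged background effect was -0.08 (adjusted p = 0.792, edgeR). A loop to an anchor 35.3 kb upstream of Max, within an intron of Gm35041, held 2.95 to 3.99 CPM in B6 background and 5.76 to 8.26 in D2 background. The backgrounds did not overlap there, at 44 counts in all, and the effect of 1.13 did not pass (adjusted p = 0.119, edgeR). Only D2-background libraries reached the 5 counts that the filter asks for, so the filter partly sets this separation. A loop to a second anchor at Fntb, 124.7 kb downstream, held 0.738 to 9.30 CPM in B6 background and 3.60 to 10.2 in D2 background. The loop to Zbtb1 and Zbtb25, zinc finger genes 584.7 kb downstream, held 1.03 to 6.64 against 2.36 to 3.91 CPM.

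The loop between the 2 Lin28a anchors was its fullest, with 29.9 and 38.5 CPM in B6, 17.5 and 19.9 in B6-13D2, 21.2 and 9.13 in D2, and 21.9 and 13.0 in D2-13B6. The 2 B6 libraries lay above the other 6. D2 against B6 gave -1.12 (adjusted p = 0.0514, edgeR) and the averaged background effect -0.62 (adjusted p = 0.0854). Contacts of the anchor at the starts, with that loop left out, were 97.8 and 82.4 CPM in B6, 62.8 and 73.8 in B6-13D2, 63.7 and 70.4 in D2, and 68.6 and 67.0 in D2-13B6. Those of the second anchor, shared with Dhdds, were 37.2 to 51.5 CPM in B6 background and 35.0 to 44.8 in D2 background. In both sets the highest value was that of B6 replicate 1. The other fuller loops included those to an anchor without an annotated gene 113.8 kb downstream, at 6.18 to 14.6 CPM in B6 background and 5.04 to 9.44 in D2 background from 1 Lin28a anchor and 2.66 to 9.60 against 5.11 to 6.52 from the other. The loop to Ubxn11 and Sh3bgrl3, 98.7 kb upstream, held 5.31 to 9.27 against 1.18 to 15.6 CPM. The loop to Hmgn2, a nucleosome-binding protein gene, held 2.66 to 11.3 against 4.38 to 5.22 CPM. In 3 sparser loops, picked out after their values were seen, every B6-background library lay above every D2-background library. Such an order was seen in 5.65% of all tested loops. None of the 3 would have passed the filter of 5 counts in 2 libraries on D2 background alone, so the filter partly sets this order. These led to the anchor at Gpatch3 and its neighbours 418.8 kb downstream (4.43 to 6.64 against 1.18 to 3.91 CPM), to Arid1a, a chromatin remodeller gene (3.09 to 6.64 against 1.30 to 2.36), and, from 1 Lin28a anchor, to Rps6ka1, a kinase gene (2.95 to 7.21 against 1.18 to 2.61). The loop to Rps6ka1 from the other Lin28a anchor overlapped (1.33 to 10.3 against 3.91 to 5.84 CPM), as did the loop to the anchor at Pigv, which also covers an exon of Arid1a (2.06 to 5.31 against 1.18 to 3.60). No Lin28a loop passed a test.

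Other genes of these pathways were followed by the same gene sums. Of 9 genes of the MAX network, which compete with MYC for MAX or extend it, 2 rose and 0 fell for the averaged background effect (median 0.08, against 0.02 over all genes tested). Over all genes, 13.8% rose and 12.8% fell in this comparison. Both, Mnt and Mlx, lie on chromosome 11, whose share of counts was raised in D2-13B6. Mga, a repressor that binds MAX, lies on chromosome 2. It rose in B6-13D2 against B6, from 365.3 and 387.6 CPM to 558.8 and 501.1, a log2 fold change of 0.49 (SE 0.11, adjusted p = 0.00135, edgeR). Its D2 libraries stood at 355.4 and 408.5 and its D2-13B6 libraries at 424.4 and 431.8, and the interaction was -0.66 (SE 0.16, adjusted p = 0.00257).

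Of 14 MYC cofactors and turnover genes, 0 were called for the averaged background effect by edgeR (4 had an unadjusted p under 0.05), and 2 rose for the averaged interval effect. Over all genes the shares called were 26.5% and 9.69%. The 2 were Huwe1, a ubiquitin ligase that acts on MYC, at 0.49 (SE 0.14, adjusted p = 0.00974), and Skp2, another ligase subunit, at 0.28 (SE 0.09, adjusted p = 0.0233). Huwe1 lies on the X chromosome and stood at 53.2 and 50.1 CPM in B6, 91.2 and 73.7 in B6-13D2, 81.1 and 84.7 in D2, and 70.0 and 61.1 in D2-13B6. In D2 against B6, 1 of the 14 rose and 1 fell, where 12.4% of all genes were called. Huwe1 rose by 0.68 (SE 0.21, adjusted p = 0.019, edgeR). Zbtb17, which encodes the MYC partner MIZ1, fell by 0.43 (SE 0.14, adjusted p = 0.0283, edgeR).

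Of 22 MYC target genes, 5 rose and 1 fell for the averaged background effect, with a median of -0.01 against 0.02 over all genes. The share called over all genes was 26.5%, close to that of the list. Srm, which encodes spermidine synthase, fell from 102.3 and 127.9 CPM in B6 and 82.7 and 115.1 in B6-13D2 to 50.3 and 50.6 in D2 and 61.3 and 56.7 in D2-13B6. The log2 fold change was -0.97 (SE 0.13, adjusted p = 2.64e-09, edgeR). Ncl, which encodes nucleolin, rose by 0.48 (SE 0.09, adjusted p = 2.65e-05). Of the 5 that rose, Npm1, Eif4a1 and Nme1 lie on chromosome 11, and Ncl and Rcc1 do not. Ncl and Rcc1 were picked out after their values were seen.

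The 8 genes of let-7 control outside the family itself, among them Trim71, Dgcr8 and Dicer1, gave 0 calls in each of the 6 contrasts by edgeR, with 4 results at an unadjusted p under 0.05. Over all genes, 6.67% to 26.5% were called in these contrasts. Of 12 let-7 loci, 6 were tested. The mature sequences of those that were called are given because they share the seed, bases 2 to 8 in capitals, through which the family finds its targets (RefSeq, GRCm38.p6).
let-7a-5p: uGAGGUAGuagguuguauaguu
let-7d-5p: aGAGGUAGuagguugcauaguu
let-7f-5p: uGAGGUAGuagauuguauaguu
let-7e-5p: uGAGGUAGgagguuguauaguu
Mirlet7a-1, Mirlet7d and Mirlet7f-1 lie side by side on chromosome 13 (mature sequences at 48536078 to 48538260). Whether this lies inside the exchanged interval was not examined here. These loci share the same loops, so they are 1 measurement. It stood at 123.1 and 133.1 CPM in B6, 152.7 and 140.7 in B6-13D2, 108.6 and 150.5 in D2, and 89.7 and 93.8 in D2-13B6. The D2-13B6 libraries were the lowest. The averaged interval effect was 0.34 (SE 0.11, adjusted p = 0.0297, edgeR) and the averaged background effect -0.33 (SE 0.11, adjusted p = 0.0155). Within backgrounds, these loci were called for the interval in D2 background (D2 against D2-13B6) and not in B6 background. Over all genes, 9.5% and 6.67% were called in these 2 contrasts. Mirlet7e, on chromosome 17, rose in D2 background by 0.56 (SE 0.16, adjusted p = 0.0034), from 32.4 and 50.1 CPM in B6 and 48.8 and 40.6 in B6-13D2 to 66.3 and 62.0 in D2 and 55.4 and 65.4 in D2-13B6.

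Of 11 let-7 targets, 3 rose and 1 fell for the averaged background effect, and 1 rose and 3 fell for the averaged interval effect. Over all genes 26.5% and 9.69% were called in these comparisons. In D2 against B6, 0 of the 11 were called by edgeR, where 12.4% of all genes were called. Hmga2, a chromatin protein gene and a classical let-7 target, stood at 76.2 and 83.1 CPM in B6, 46.7 and 39.9 in B6-13D2, 90.3 and 96.1 in D2, and 155.3 and 133.7 in D2-13B6. On average over the 4 lines, it rose with D2 background by 0.99 (SE 0.13, adjusted p = 4.14e-10, edgeR). It fell with the D2 allele of the interval by 0.76 (SE 0.13, adjusted p = 8.79e-06). Between the parental lines it was not called, with means of 79.6 CPM in B6 and 93.2 in D2. The lines with the B6 allele were thus higher than the line of the same background with the D2 allele, in both backgrounds. Igf2bp3, an RNA-binding protein gene, moved the other way, by -0.26 (adjusted p = 0.00263, edgeR) with background and 0.24 (adjusted p = 0.0205) with the allele. It stood at 864 and 882 CPM in B6, 1141 and 1017 in B6-13D2, 818 and 897 in D2, and 766 and 757 in D2-13B6. The parental lines thus overlapped, and the congenic lines lay apart in opposite directions. Ccnd1, the cyclin D1 gene, fell with the D2 allele by 0.54 (adjusted p = 0.0211). Igf2bp1, on chromosome 11, was called in both. It stood at 2049 and 2068 CPM in D2-13B6 and at 1151 to 1390 in the other lines. The part of the raised chromosome 11 share of D2-13B6 in these calls was not tested.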

How the data were processed

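H3K27ac HiChIP loops were measured in 8 libraries, 2 technical replicates of each of 4 ES cell lines. The deposited table of the whole series holds raw counts of read pairs per loop and library, not normalized. Per the submitters' processing notes, the tools included BWA 0.7.18, SAMtools 1.19.2 and edgeR 3.34.1 and the build was mm10. The loop caller is not given in the sources used here. All columns of values matched a sample (0 unmatched).

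Loops were assigned to genes where an anchor lay within 5 kb of a GENCODE M21 transcription start. Loops with at least 5 counts in 2 libraries, and gene sums with at least 10, were tested across all features with edgeR 4.0.16 in R 4.3.3 (TMM factors, quasi-likelihood test, Benjamini-Hochberg adjustment over the whole table, threshold 0.05). In all, 6 contrasts were fitted over the 4 lines: D2 against B6, the D2 allele minus the B6 allele of the interval within each background, the background and interval effects each averaged over the other factor, and their interaction. DESeq2 1.42.0, other scalings, filters and windows, and each left-out library were alternatives. The genes, lists and tests were chosen with earlier results of these data known.

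The text names, for each gene, the loop inside its anchor, the 4 other loops with the highest mean CPM and every called loop. It names at most 4 genes of each pathway list, those called with the smallest adjusted p, or else the most contacted. Exceptions, picked out after their values were seen, were Ncl, Rcc1 and 5 sparser Lin28a loops (to Gpatch3, Arid1a, Pigv and, from both anchors, Rps6ka1). Replicates differed by more than sampling noise (chi-square over degrees of freedom 1.05 to 1.21) and were kept apart. P-values measure the spread between technical libraries only. Exact 95% intervals cover the counting error of pooled libraries only, and read pairs carried no molecular identifiers. The procedure was tested on simulated data for D2 against B6. Over 40506 loops it recovered 6.59% of 2-fold and 39.6% of 4-fold changes, and over 19338 genes 66% and 92.9%.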

Additional observations from a re-analysis of the deposited data

How the results depend on the processing

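No loop or gene sum that passed the threshold changed direction under any alternative. Some uncalled effects near 0 changed sign, among them the background effect on Max without B6 replicate 1. The 4 loops called in D2 against B6 became 1 at an adjusted p threshold of 0.01, 0 with DESeq2, 0 without a filter on low counts, and 0 to 5 with 1 library left out. The 3 loops of the background effect became 1 with DESeq2 and 2 to 4 with 1 library left out. The 2 gene sums called in D2 against B6 became 0 at the threshold of 0.01, 1 with a scaling factor per chromosome, 0 with DESeq2, and 0 to 3 with 1 library left out. The 3 gene sums of the background effect became 1 at the threshold of 0.01, 1 with DESeq2, and 1 to 3 with 1 library left out. The interval effect on gene sums went from 0 calls to 0 to 1, with 1 reached without B6-13D2 replicate 2. A left-out library leaves its line with 1, which is assumed to vary like the others. Over all loops, calls in D2 against B6 went from 1183 of 44706 to 338 with DESeq2, and to 476 of 415681 without a filter. For the background effect, 3956 loop calls became 1244 with DESeq2. Over all 19524 genes, DESeq2 took the calls from 2423 to 1128 in D2 against B6 and from 5181 to 2820 for the background effect. A scaling factor per chromosome gave 2555 genes in D2 against B6. The cause of these changes was not tested.

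Replicate numbers did not pair the libraries in the same order across lines (correlations of deviations -0.355 to 0.094 over 11045 genes). The value of -0.355 was that of B6 with B6-13D2, where replicate 1 of B6 tended to deviate with replicate 2 of B6-13D2. A block on the replicate number does not take up such a reversed order. With the replicate number as a block, 4 loops were called in D2 against B6 and 3 for the background effect, and 2 gene sums in each. The call lost was Mycl (-0.24, adjusted p = 0.0527, edgeR). In simulated loops, 39.6% of 4-fold changes were recovered, so a loop without a call may still differ.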

Other observations

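For each gene with loops, the genes on other chromosomes whose summed contacts followed it most closely over the 8 libraries are given as a description (Pearson's r of log2(CPM + 1)), since libraries of a line share their cells and 19524 genes were searched. For Myc these were Gm47823 (r = 0.986) and Tigar (0.985), for Mycn Rps20 and 9430025C20Rik (0.995 each), and for Mycl A4galt and Gm32886 (0.985 each). For Max they were Gm15574 (0.964) and Dis3l (0.963), and for Lin28a Trcg1 (0.987) and Cmip (0.977).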
